A study of Mus musculus with 9 samples.

Results

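This report describes 37 enzymes and transporters that carry glucose carbon through glycolysis, lactate, the pyruvate dehydrogenase complex and the citrate cycle, in the fetal mouse brain after maternal exposure to ethanol (EtOH). The genes were chosen by name, as known members of these pathways, and each was found as 1 locus under its name alone among the 27095 loci of the expression table. RNA was sequenced from 9 C57BL/6 wild type fetuses at gestational day 17 (GD17), in groups of 3 animals. Dams of the control fetuses were injected with lactated Ringer's solution on gestational day 7, and dams of both other groups received 2.9 g/kg EtOH intraperitoneally on the same day. The EtOH affected group held the exposed fetuses in which ocular and craniofacial defects were seen, and the EtOH unaffected group held exposed fetuses that lacked them. The sample labels name the tissue as fetal brain and the study's methods name the cortex. The comparisons address whether transcripts of central carbon metabolism differ after exposure, and whether they differ between exposed fetuses with and without defects.

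Glycolysis splits glucose in the cytosol into pyruvate and yields a little ATP without oxygen. Pyruvate is either reduced to lactate or carried into mitochondria, where the pyruvate dehydrogenase complex turns it into acetyl-CoA for the citrate cycle, which hands electrons to the respiratory chain. Neural progenitors are known for a strongly glycolytic metabolism, and neurons lean more on mitochondrial oxidation as they mature.

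Abundance was given in FPKM, a fragment count corrected for transcript length and for the size of the library, with 1 value per group taken over its 3 animals. No value of a single animal was used here, so none of the values below carries an error between animals. The authors' own test results in the table were not used, and no difference was tested here. Fold changes are log2 ratios of FPKM + 0.1 and are given as descriptions of these groups. A locus was counted as higher or lower when it was past 1.2-fold, a log2 value of 0.26, among the 15548 loci with a mean FPKM of at least 1. All 37 genes passed that filter, from 1.51 for Hk2 to 388 for Pkm in mean FPKM, and 33 of them had a mean of at least 10. In bulk tissue, a smaller number of cells of a type and less RNA per cell cannot be told apart.

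The enzymes of glucose oxidation lay close to the control in the EtOH unaffected group, and in the EtOH affected group most of them were slightly lower, while 12 of 37 were higher, among them Hk1, Hk2, Ogdh, Cs, Pfkm, Pkm, Pfkl and Gpi1. In EtOH unaffected against control, 0 of 37 genes were lower and 0 were higher past 1.2-fold, beside 9.4% of all loci lower and 7.15% higher. In EtOH affected against control, 3 genes were lower (Pfkp, Suclg1 and Fh1), which is 8.11% of the members beside 15.6% of all loci. Only Hk2 was past the fold upward, which is 2.70% of the members beside 17.5% of all loci. Between the exposed groups, 8 genes were lower in affected fetuses (Aldoa, Pgk1, Ldha, Ldhb, Pdhb, Idh3b, Suclg1 and Fh1), or 21.6% beside 22.9% of all loci. Hk1, Hk2 and Pfkm were higher there, or 8.11% beside 25.1% of all loci. At 1.2-fold, the share of members was thus below that of all loci in both directions of each comparison, although only slightly so for the genes lower in affected than in unaffected fetuses. At 1.1-fold, this was turned for the genes lower in affected fetuses, with 32.4% of members beside 28.6% of all loci against control and 45.9% beside 34.7% against unaffected fetuses. It was also turned for the genes higher in unaffected fetuses against control, with 21.6% beside 19.1%. Centred on the median of all loci, Pgam1 and Idh2 were also past 1.2-fold lower between the exposed groups. The share of all loci was not computed on that scale.

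Below that limit, the small differences in affected fetuses were more often downward than upward. In EtOH affected against control, 25 of the 37 genes were below 0 and 12 above, with a median log2 fold change of -0.07, where the median of all loci was 0.02. Against EtOH unaffected, 23 were below 0 with a median of -0.12, and the median of all loci was 0.01. In EtOH unaffected against control, 23 were above 0 with a median of 0.06, beside 0.01 for all loci. Among the loci with a mean FPKM of at least 10, the medians were -0.009, -0.042 and 0.028 in these comparisons, in the same order. Set against loci of like transcript length, a step added after seeing the data, the medians were -0.037 with 22 genes below 0 in affected fetuses against control, and -0.040 with 20 below 0 between the exposed groups. On that scale only Fh1 and Pfkp were past 1.2-fold lower between the exposed groups, beside 13.6% of the loci. These 3 comparisons share groups of animals, so they are not independent of each other.

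**Figure D1:**
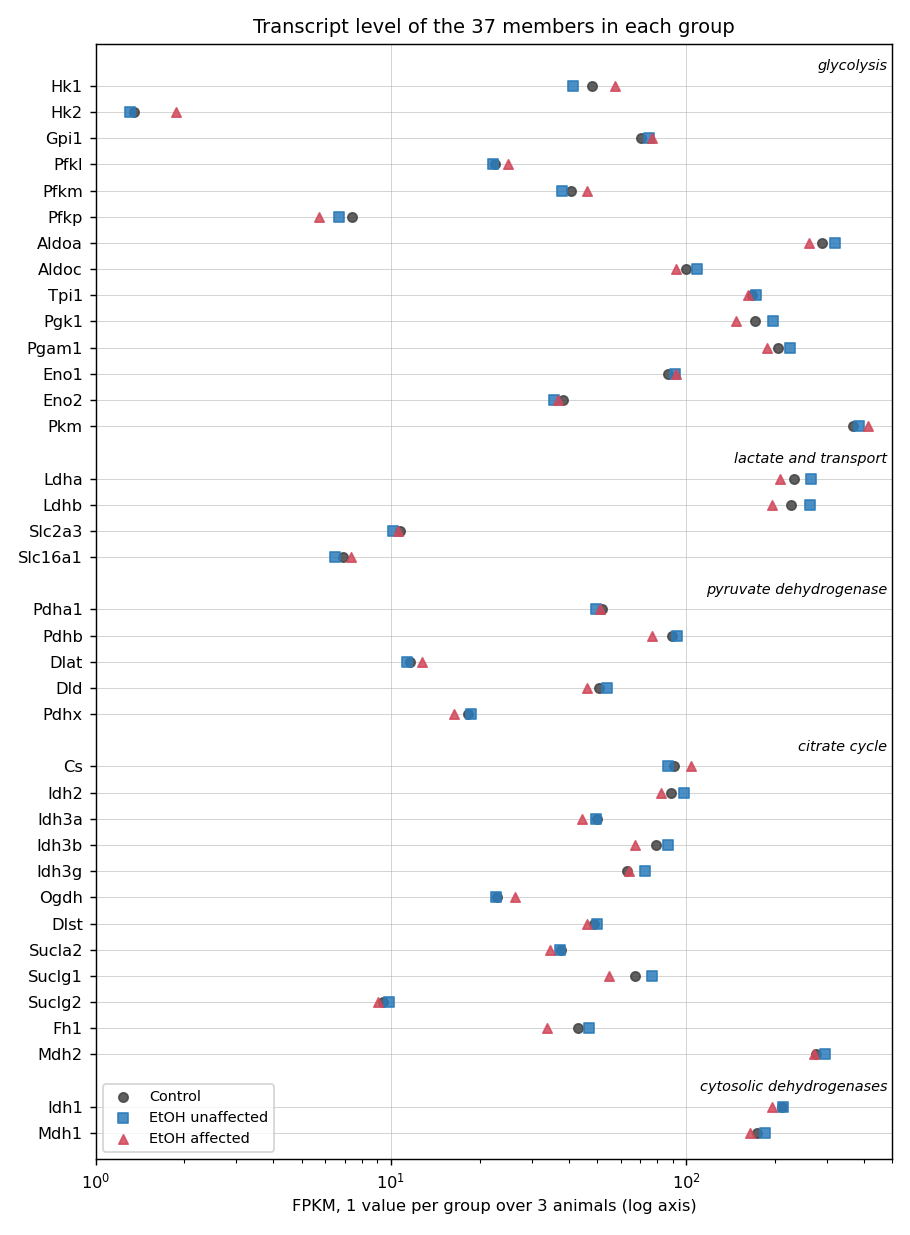
FPKM of each of the 37 genes (log axis) in control (grey circles), EtOH unaffected (blue squares) and EtOH affected (red triangles) fetuses, 1 value per group over 3 animals, ordered by pathway step. The levels run from 1.31 for Hk2 to 413 for Pkm, and the 3 groups lie close together for most genes, with the affected group lowest for Pgk1, Ldha, Ldhb, Suclg1 and Fh1 and highest for Hk1, Hk2 and Cs.

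The plot of levels shows that the genes differ from each other far more than any gene differs between groups. Both the most abundant gene, Pkm, and the least abundant, Hk2, belong to glycolysis.

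The entry steps of glycolysis held the 3 members past 1.2-fold above the unaffected level in affected fetuses. Hk1, the hexokinase that phosphorylates glucose in most brain cells, had 48.1 FPKM in control, 41.4 in unaffected and 57.7 in affected fetuses. Its log2 fold change was -0.22 in unaffected and 0.26 in affected fetuses against control, and 0.48 between the exposed groups. At 0.262 against a limit of 0.263, Hk1 stopped just short of 1.2-fold above control. Hk2, the inducible hexokinase, was scarce, with 1.35 FPKM in control, 1.31 in unaffected and 1.87 in affected fetuses. It was the only member past 1.2-fold above control (log2 0.44), and it was 0.49 higher than in unaffected fetuses. Hk1 lies at chr10:62268855-62379908 and Hk2 at chr6:82725027-82774454 of mm10.

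Gpi1, which turns glucose phosphate into fructose phosphate, had 70.2 FPKM in control, 74.99 in unaffected and 76.8 in affected fetuses, so both exposed groups lay above control. In the annotation, 12.3% of its exon bases overlap Gm26762 on the other strand. Phosphofructokinase, the committed step of glycolysis, has liver, muscle and platelet isozymes, and these did not go the same way. The muscle isozyme Pfkm (chr15:98038744-98132447) had 40.8, 37.9 and 46.1 FPKM in control, unaffected and affected fetuses, a log2 difference of 0.28 between the exposed groups. The liver isozyme Pfkl had 22.6, 22.2 and 24.9 FPKM in the same order. The platelet isozyme Pfkp (chr13:6548157-6648724) ran the opposite way, with 7.41, 6.67 and 5.73 FPKM. Pfkp was the member furthest below control in affected fetuses, with a log2 fold change of -0.37, and its level in unaffected fetuses lay between the other groups. In the annotation, 17.4% of the exon bases of Pfkp overlap Pitrm1 on the other strand, and the sources used here do not say whether reads were counted by strand. By coordinate, the deposited loci of Pfkm and Pfkp begin at 98038744 and 6548157, and the annotated genes at 98092589 and 6579768. Both loci thus reach past the annotated gene.

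From aldolase to phosphoglycerate mutase, the affected fetuses had the lowest and the unaffected fetuses the highest level of every member. Gapdh, a further enzyme of this stretch, is not among the members and did not share this order. It had 442 FPKM in control, 477 in unaffected and 490.4 in affected fetuses. Aldoa and Aldoc are the aldolases that split the sugar bisphosphate, Aldoc being the form typical of brain. Aldoa (chr7:126795233-126800447) had 289 FPKM in control, 319 in unaffected and 261 in affected fetuses, and a log2 fold change of -0.29 between the exposed groups. Aldoc had 100.3, 109 and 92.7 FPKM, with -0.23 between the exposed groups. Tpi1, which interconverts the triose phosphates, differed least, with 167, 173 and 162 FPKM.

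Pgk1 is the phosphoglycerate kinase that makes the first ATP of the pathway, and it lies on the X chromosome (chrX:106187124-106203699). It had 171 FPKM in control, 197 in unaffected and 147 in affected fetuses. Its log2 fold change was 0.21 in unaffected and -0.21 in affected fetuses against control, and -0.42 between them, the lowest value within glycolysis proper. Pgam1, the phosphoglycerate mutase, had 205, 224 and 188 FPKM, and at -0.25 between the exposed groups it stayed just short of 1.2-fold.

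The last steps before pyruvate did not share that order. Eno1, the ubiquitous enolase, had 87.2 FPKM in control, 91.9 in unaffected and 92.7 in affected fetuses. Eno2, the neuronal enolase, had 38.2, 35.7 and 36.9 FPKM, with a log2 fold change of -0.10 in unaffected fetuses against control. Pkm, the pyruvate kinase, had 366, 384 and 413 FPKM, with its highest level in affected fetuses (log2 0.17 against control). On its own strand, 12.9% of its exon bases overlap Gm49759. The 14 glycolytic enzymes together had a median log2 fold change of 0.06 in unaffected and 0.02 in affected fetuses against control and of 0.02 between the exposed groups. Together they summed to 1614 FPKM in control, 1717 FPKM in unaffected and 1608 FPKM in affected fetuses.

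**Figure D2:**
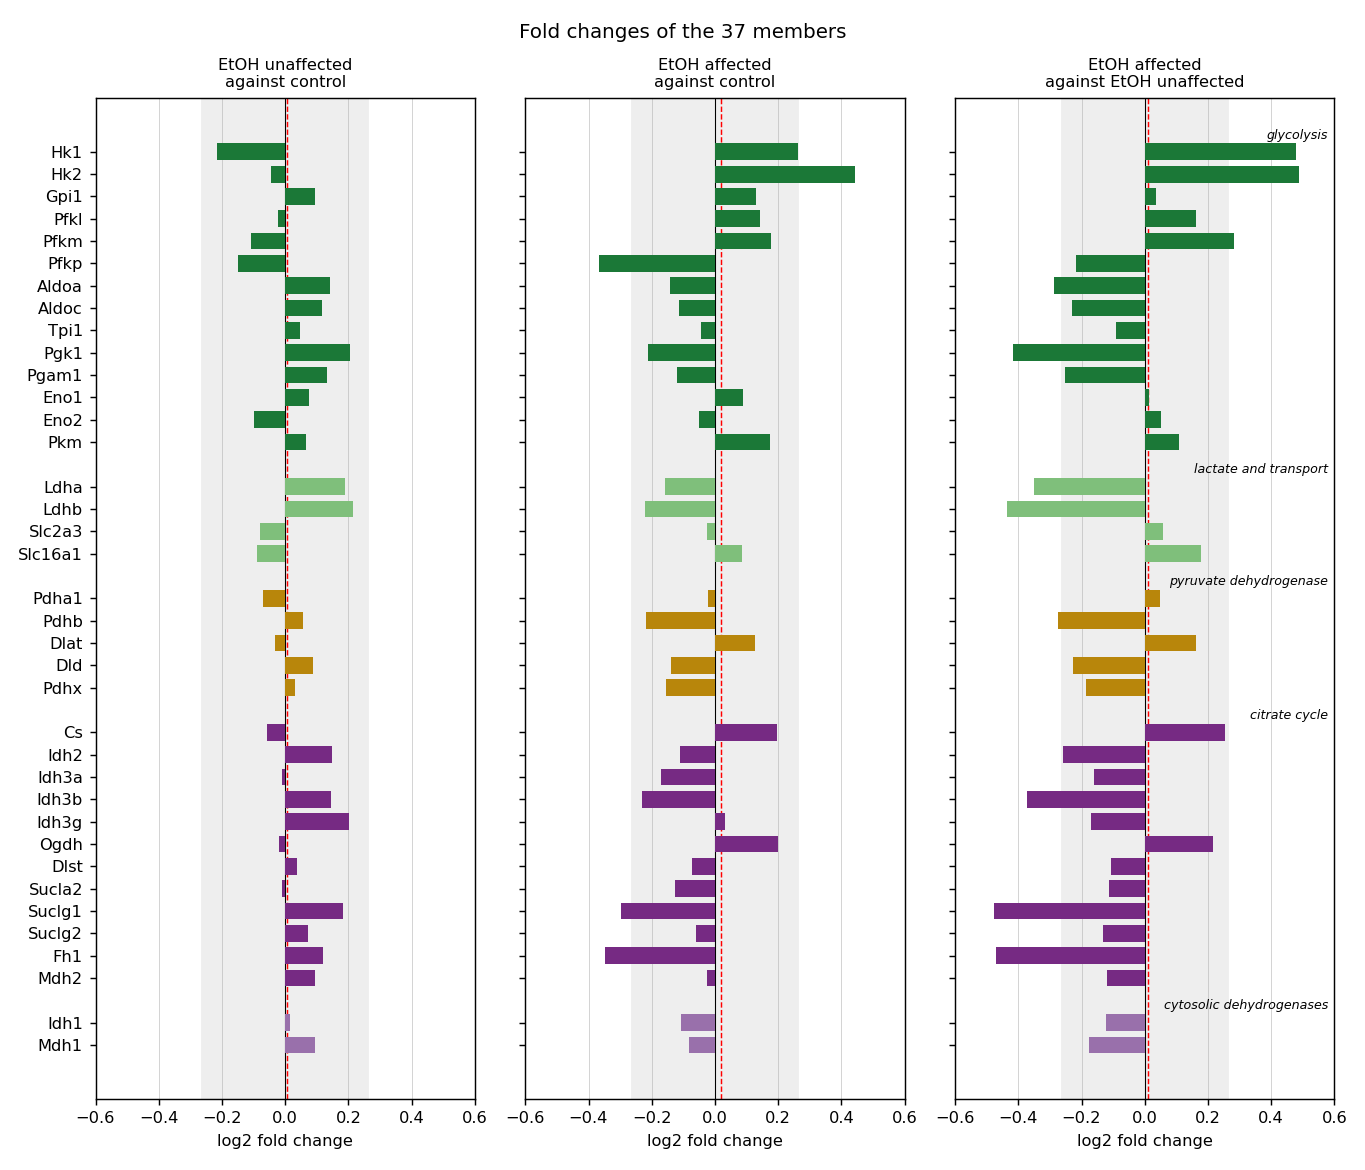
Log2 fold change of each of the 37 genes in the 3 comparisons, coloured by pathway step, where the grey band marks less than 1.2-fold, the solid line 0 and the dashed red line the median of all loci. No bar leaves the band in EtOH unaffected against control, 4 leave it in EtOH affected against control and 11 in EtOH affected against EtOH unaffected, with Hk1 and Hk2 on the high side and Suclg1 and Fh1 on the low side.

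In the bars of fold change, a gene below control in affected fetuses was often above control in unaffected fetuses. The order of the groups put numbers on this. For 19 of 37 members (51.4%) the unaffected group was highest and the affected group lowest, an order seen at 31.0% of all loci and at 41.8% of the loci with at least 10 FPKM. The reverse order, highest in affected and lowest in unaffected fetuses, was found for 8 members (21.6%) beside 32.3% of all loci. Members of the first kind included 5 of the 14 glycolytic enzymes and 7 of the 12 citrate cycle genes.

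Lactate dehydrogenase interconverts pyruvate and lactate, and both of its subunits showed the same pattern. Ldha (chr7:46845804-46855627), the subunit typical of glycolytic tissue, had 233 FPKM in control, 265 in unaffected and 208 in affected fetuses, with a log2 fold change of -0.35 between the exposed groups. Ldhb (chr6:142490249-142507943), the subunit typical of oxidative tissue, had 227, 263 and 195 FPKM and a log2 fold change of -0.43. Against control, Ldha stood at 0.19 and -0.16 and Ldhb at 0.21 and -0.22 in unaffected and affected fetuses, all within 1.2-fold. The transporters were nearer to level across the groups. Slc2a3, the glucose transporter of neurons, had 10.8, 10.2 and 10.6 FPKM. Slc16a1, which carries lactate and pyruvate across the cell membrane, had 6.88, 6.46 and 7.32 FPKM.

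The promoters of glycolytic genes are known to hold hypoxia response elements, and so the core letters ACGTG were searched for on both strands of the windows from 250 bases before to 50 bases after each annotated start. The windows are from RefSeq (GRCm38.p6, the mm10 build) and were matched for 35 of the 37 genes. Of these, 14 genes (40%) held the core in at least 1 window, beside 21.8% of all 27025 genes with a window. It was held by 8 of 14 glycolytic enzymes, 1 of 5 pyruvate dehydrogenase genes and 2 of 11 citrate cycle genes. The letters CACGTG read the same on both strands and count on each. Stretches of 80 bases are shown for 2 genes with lower levels in affected than in unaffected fetuses and for 2 with higher levels, 5′ to 3′ on the strand of the gene with the core in capitals in either orientation (ACGTG or CACGT).
Ldha, chr7:46845719-46845798, plus strand: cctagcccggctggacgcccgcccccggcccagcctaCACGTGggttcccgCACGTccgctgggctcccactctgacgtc
Pgk1, chrX:106186912-106186991, plus strand: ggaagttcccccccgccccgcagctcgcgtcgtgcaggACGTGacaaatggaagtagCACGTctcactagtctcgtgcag
Hk2, chr6:82774465-82774544, minus strand: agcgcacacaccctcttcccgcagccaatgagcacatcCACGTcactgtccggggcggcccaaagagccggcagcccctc
Pfkm, chr15:98092416-98092495, plus strand: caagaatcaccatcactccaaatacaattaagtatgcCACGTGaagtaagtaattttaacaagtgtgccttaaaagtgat

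The core was present in genes with lower and in genes with higher levels in affected than in unaffected fetuses, but the windows of Suclg1, Fh1 and Ldhb, the lowest 3 genes, held none. Between the exposed groups, the 14 genes with it had a median log2 fold change of -0.17, with 4 lower and 3 higher past 1.2-fold, beside 22.9% and 25.1% of all loci. The 21 genes without it had a median of -0.12, with 4 lower and 0 higher. Against control, the medians in affected fetuses were -0.03 with and -0.07 without the core. A match of these letters describes the sequence only and is no evidence of binding. The letters CGCATGCG, the core bound by the factor NRF1 at many genes of mitochondria, were in the windows of 2 of the 35 genes (Pgam1 and Ogdh), beside 2.07% of all genes.

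The pyruvate dehydrogenase complex had 4 of its 5 genes below control in affected fetuses, each within 1.2-fold. Pdha1, the alpha subunit of the decarboxylating enzyme and encoded on the X chromosome, was nearly level at 51.9 FPKM in control, 49.4 in unaffected and 51.1 in affected fetuses. In the annotation, 21.2% of its exon bases overlap Map3k15 on the other strand. The deposited locus of Pdha1 begins at 159988433 by coordinate and the annotated gene at 160122209, so this locus too reaches past the gene. Its partner Pdhb (chr14:8165991-8172992), the beta subunit, had 89.4, 93.1 and 76.9 FPKM, with log2 fold changes of -0.22 against control and -0.27 against unaffected fetuses. Dlat, the acetyltransferase core of the complex, ran the other way with 11.6, 11.4 and 12.7 FPKM. Dld, the dihydrolipoamide dehydrogenase that the complex shares with the oxoglutarate dehydrogenase complex, had 50.8, 54.0 and 46.1 FPKM. Pdhx, which binds Dld to the core, had 18.3, 18.7 and 16.4 FPKM. The median of the 5 genes was 0.03 in unaffected and -0.14 in affected fetuses against control and -0.19 between the exposed groups. Set against loci of like transcript length, the last value was -0.033, as Pdhb itself went from -0.27 to -0.033. Between the exposed groups Pdha1 and Dlat were above 0 and the other 3 genes below it.

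The citrate cycle began with a gene that was higher in affected fetuses. Cs, citrate synthase, had 90.8 FPKM in control, 87.2 in unaffected and 104 in affected fetuses, with a log2 fold change of 0.20 against control. At 0.26 against unaffected fetuses it was just short of 1.2-fold. Ogdh, the substrate-binding enzyme of the oxoglutarate dehydrogenase complex, was the other of the 12 cycle members with its highest level in affected fetuses, at 23.0, 22.7 and 26.4 FPKM. Dlst, the succinyltransferase of the same complex, had 48.7, 49.96 and 46.3 FPKM, so the subunits of this complex stood on opposite sides of control.

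Isocitrate dehydrogenase of the cycle exists as an NAD-linked enzyme of 3 kinds of subunit and as the NADP-linked Idh2. Idh3a, the catalytic subunit, had 50.03 FPKM in control, 49.7 in unaffected and 44.4 in affected fetuses. Idh3b (chr2:130274412-130284451) had 78.8, 87.1 and 67.2 FPKM and a log2 fold change of -0.37 between the exposed groups. Idh3g, encoded on the X chromosome, had 63.0, 72.4 and 64.3 FPKM, which put the affected group at control and the unaffected group above both. Idh2 had 88.8, 98.5 and 82.3 FPKM, and at -0.26 between the exposed groups it was just short of 1.2-fold.

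Of the 12 cycle members, Suclg1 and Fh1 differed most from unaffected to affected fetuses. Suclg1 (chr6:73248505-73276907), the alpha subunit of succinyl-CoA ligase, had 67.3 FPKM in control, 76.4 in unaffected and 54.8 in affected fetuses. Its log2 fold change was 0.18 in unaffected and -0.30 in affected fetuses against control. At -0.48 between the exposed groups it was the lowest of all 37 genes. The beta subunits differed less. Sucla2, which makes the ATP-forming enzyme, had 37.8, 37.5 and 34.7 FPKM, and Suclg2, which makes the GTP-forming enzyme, had 9.42, 9.90 and 9.03 FPKM.

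Fh1 (chr1:175601378-175625635), the fumarase that hydrates fumarate to malate, had 43.2 FPKM in control, 47.0 in unaffected and 33.9 in affected fetuses. Its log2 fold changes in affected fetuses were -0.35 against control and -0.47 against unaffected fetuses, or differences of -21.5% and -27.9% in FPKM. Mdh2, the mitochondrial malate dehydrogenase that closes the cycle, was the most abundant cycle gene and differed little, with 276, 295 and 271 FPKM. The cytosolic dehydrogenases, which exchange reducing power and carbon with the mitochondrion, were likewise lowest in affected fetuses. Idh1 had 211 FPKM in control, 213 in unaffected and 196 in affected fetuses, and Mdh1 had 174, 186 and 164 FPKM.

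Set beside glycolysis, the citrate cycle had the lower median in affected fetuses, while its share of genes past 1.2-fold was near that of all loci. Of its 12 genes, 2 were lower against control (16.7%, beside 15.6% of all loci) and 3 between the exposed groups (25.0%, beside 22.9%), and 0 were higher in either. The median log2 fold change of its 12 genes was 0.08 in unaffected and -0.09 in affected fetuses against control and -0.15 between the exposed groups, where 10 of 12 genes were below 0. The cycle median minus the glycolysis median was 0.03, -0.11 and -0.17 in these 3 comparisons, and for the pyruvate dehydrogenase complex the corresponding differences were -0.03, -0.16 and -0.21. Set against loci of like transcript length, the medians between the exposed groups lay closer together. They were 0.06 for glycolysis, -0.033 for pyruvate dehydrogenase and -0.08 for the cycle. The cycle genes summed to 877 FPKM in control, 933 FPKM in unaffected and 839 FPKM in affected fetuses.

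**Figure D3:**
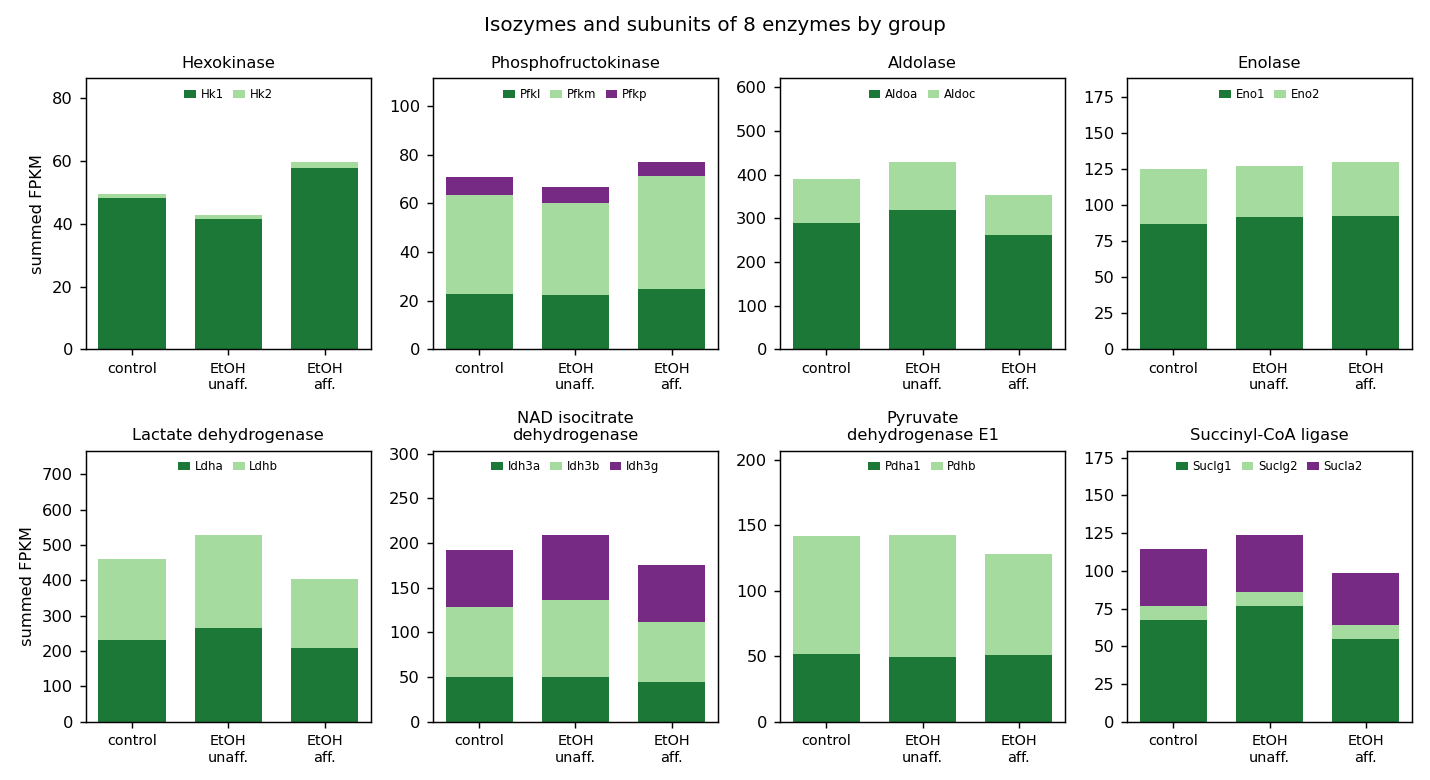
Summed FPKM of the isozymes or subunits of 8 enzymes in the control, EtOH unaffected and EtOH affected groups, 1 value per group over 3 animals, with each bar divided by gene and each axis starting at 0. Hexokinase and phosphofructokinase are highest in affected fetuses, aldolase, lactate dehydrogenase and succinyl-CoA ligase are lowest there, and the division of the bars shifts most within succinyl-CoA ligase, where Suclg1 goes from 61.7% in unaffected to 55.6% in affected fetuses.

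Because FPKM is scaled to length, the isozymes of an enzyme can be set side by side, and the plot of summed FPKM divides each enzyme by gene. Hexokinase summed to 49.4 FPKM in control, 42.7 in unaffected and 59.6 in affected fetuses, and Hk1 made up 96.9% to 97.3% of it in each group. Phosphofructokinase summed to 70.8, 66.8 and 76.8 FPKM, and Pfkp made up 10.46%, 9.99% and 7.46% of it in the same order. Muscle-type Pfkm was the leading isozyme throughout, at 57.7%, 56.7% and 60.1%.

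In aldolase, lactate dehydrogenase and enolase, the isozymes came in similar proportions in each group. Aldolase summed to 389, 428 and 354 FPKM in control, unaffected and affected fetuses, with Aldoa at 74.2%, 74.6% and 73.8%. Lactate dehydrogenase summed to 459.6, 529 and 403 FPKM, with Ldha at 50.6%, 50.2% and 51.7%, so its subunits were present in nearly equal amounts in every group. Enolase stayed at 125, 128 and 129.7 FPKM, and its neuronal form Eno2 made up 30.5%, 28.0% and 28.5%.

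Among the mitochondrial enzymes, the proportion of subunits moved a little more. Pdhb had 1.72 times the FPKM of Pdha1 in control, 1.88 times in unaffected and 1.504 times in affected fetuses. Succinyl-CoA ligase summed to 115, 124 and 98.5 FPKM, with Suclg1 at 58.8%, 61.7% and 55.6%. Within its beta subunits, the ATP-forming Sucla2 made up 80.1%, 79.1% and 79.3%, a nearly constant part. The NAD-linked isocitrate dehydrogenase summed to 192, 209 and 176 FPKM, where the share of Idh3b was 41.1%, 41.6% and 38.2%. Pdhb has a transcript of 1513 nt and Pdha1 of 2848 nt, while Suclg1 has 1519 nt, Sucla2 1887 nt and Suclg2 3367 nt. Set against loci of like transcript length, Pdhb stood at -0.033 and Pdha1 at 0.031 between the exposed groups. Suclg1 stood at -0.24, Suclg2 at -0.22 and Sucla2 at 0.05. The part of length in these proportions was not tested.

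Transcript length moved with these fold changes. Lengths from the GENCODE annotation were found for all 37 genes, from 1304 nt for Ldhb to 5513 nt for Hk2, and for 12332 of 12440 loci with a single name. Across the 37 genes, Spearman's rho between length and log2 fold change was -0.78 in unaffected against control, 0.53 in affected against control and 0.70 between the exposed groups. Across the loci it was -0.50, 0.55 and 0.63, and these are correlations across genes of the same libraries, which are not independent replicates. When the loci were divided by length into 3 classes of equal size, the 15 members in the shortest class, up to 2186 nt, had a median of -0.26 between the exposed groups, as did the loci of that class. The 6 members in the longest class had a median of 0.17, beside 0.23 for the loci. Median length was 2614 nt for glycolysis and 2145 nt for the citrate cycle.

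**Figure D4:**
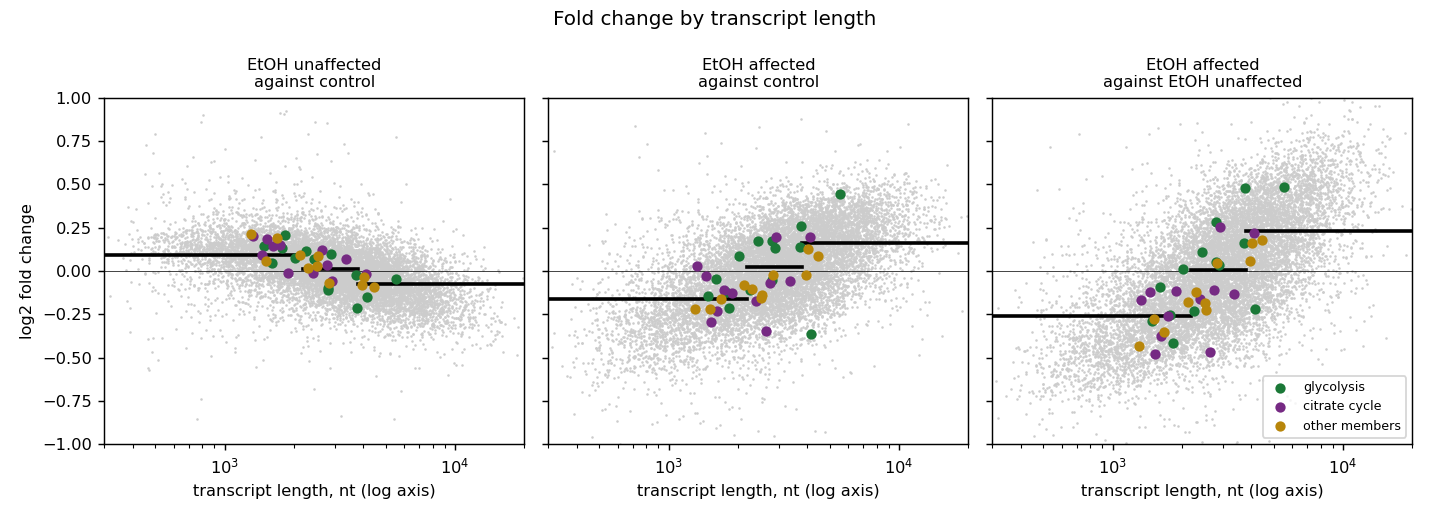
Log2 fold change against transcript length in nt (log axis) for all loci with a length (grey points) and for the members (glycolysis green, citrate cycle purple, others ochre) in the 3 comparisons, with black bars at the median of all loci in each of 3 equal classes of length. Members follow the slope of the loci in all 3 panels, and Fh1 at 2636 nt and Pfkp at 4145 nt stand below it in affected fetuses.

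The plot against length shows the members within the cloud of other loci of like length. When each fold change was set against the running median of loci of like length, the number of genes lower in affected than in unaffected fetuses went from 8 to 2, namely Fh1 at -0.45 and Pfkp at -0.35, of which Pfkp had been within 1.2-fold before. On that scale 13.6% of the loci were lower. The other genes lower in affected fetuses came closer to 0, with Suclg1 at -0.24, Pgk1 at -0.24, Ldha at -0.16, Ldhb at -0.14, Idh3b at -0.16, Aldoa at -0.04 and Pdhb at -0.033. Against control, Fh1 stayed at -0.35, Pfkp went from -0.37 to -0.46 and Suclg1 from -0.30 to -0.15. Hk1 stood at 0.40 between the exposed groups, while Hk2 and Pfkm, both at 0.26, came just within 1.2-fold. Against control, Hk2 stood at 0.28. On this scale the median between the exposed groups was 0.06 for glycolysis, -0.033 for pyruvate dehydrogenase and -0.08 for the citrate cycle, and in affected fetuses against control it was 0.08, -0.07 and -0.07. The part of transcript length, or of anything in library preparation that goes with it, was not tested.

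The exposed groups also differed in sex-linked transcripts. Xist, the RNA that silences an X chromosome in females, had 9.24 FPKM in control, 0.0210 in unaffected and 10.3 in affected fetuses. The Y-linked Ddx3y had 2.66, 8.40 and 0.00906 FPKM and Kdm5d 1.67, 5.45 and 0.00182 FPKM. Control thus lay between the exposed groups in Y-linked RNA and differed from each of them, so that in all 3 comparisons sex-linked RNA and group cannot be told apart. This touches first the X-linked members, where Pgk1 was -0.42, Idh3g -0.17 and Pdha1 0.05 between the exposed groups. The median over all 545 X-linked loci was -0.0041 there, beside 0.01 for autosomes.

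Cell type markers moved with the groups too. Of 7 markers of cortical projection neurons, all 7 were lower in unaffected and higher in affected fetuses than in control, and they summed to 749, 659 and 853 FPKM in control, unaffected and affected fetuses. The 7 markers of progenitors and radial glia summed to 2221, 2369 and 1560 FPKM, of which Fabp7 alone gave 2015, 2151 and 1352. Of these 7 markers, 4 (Pax6, Sox2, Hes1 and Eomes) were above control in affected fetuses, and the median log2 fold change of the list was 0.11. Hemoglobin and Alas2, markers of red blood cells, summed to 255, 329 and 207 FPKM, an order shared with 19 of the members. Markers of choroid plexus summed to 987, 1310 and 1098 FPKM, and of microglia to 46.5, 47.9 and 38.9. Of the 5 microglial markers, 4 were below control in unaffected and 4 in affected fetuses, with C1qb the exception in the first and Csf1r in the second. Those of vessels and meninges summed to 107, 102 and 97.0 FPKM, although 3 of the 5 (Pecam1, Col1a1 and Col1a2) were above control in affected fetuses, with a list median of 0.06. The general neuronal markers summed to 3237, 3241 and 3017 FPKM, where Stmn2 had 1003, 1027 and 800.3 and Tubb3 was nearly level at 1809, 1807 and 1799. All 4 heart markers and 3 of 4 cerebellar markers were below 1 FPKM, Atoh1 being at 0 in 2 groups, and the fourth, Zic1, had 21.7, 29.4 and 17.5 FPKM. The part of cell composition in the fold changes of the members was not tested.

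Other genes of the same pathways were read from lists of enzymes outside the 37. Of 14 further glycolytic genes that passed the filter, 0 were lower and 1 higher past 1.2-fold in unaffected fetuses against control, beside 9.4% and 7.15% of all loci. In affected fetuses against control 1 was lower and 0 were higher, beside 15.6% and 17.5%, with 5 lower (35.7%, beside 22.9% of all loci) and 1 higher (7.14%, beside 25.1%) between the exposed groups. Gapdh, the glyceraldehyde phosphate dehydrogenase that the study used as a reference gene, had 442 FPKM in control, 477 in unaffected and 490.4 in affected fetuses. Bpgm, the bisphosphoglycerate mutase known from red blood cells, had a log2 fold change of -0.42 between the exposed groups. Pfkfb3 and Pfkfb1, which set the level of the activator of phosphofructokinase, stood at 0.39 and -0.49. Slc16a3, a lactate exporter, was 0.54 above control in unaffected fetuses and -0.49 between the exposed groups. Slc16a3 and Pfkfb1 were scarce, with no group above 2.45 FPKM.

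Of 21 further genes of pyruvate and citrate metabolism, 4 were lower (19.0%, beside 15.6% of all loci) and 1 higher (4.76%, beside 17.5%) in affected fetuses against control. Between the exposed groups, 7 were lower (33.3%, beside 22.9%) and 2 higher (9.52%, beside 25.1%). Both subunits of the mitochondrial pyruvate carrier, which brings pyruvate to its dehydrogenase, were among the lower ones. Mpc1 had 124 FPKM in control, 127 in unaffected and 90.8 in affected fetuses, and Mpc2 had 89.5, 94.7 and 66.7 FPKM. Succinate dehydrogenase, the cycle enzyme that is also complex II of the respiratory chain, was divided. Its membrane anchor Sdhd had 99.0, 112 and 69.6 FPKM, with log2 fold changes of -0.51 against control and -0.68 between the exposed groups. These 3 transcripts are short, at 958 nt for Mpc1, 1025 nt for Mpc2 and 1231 nt for Sdhd, and all loci of the shortest class had a median of -0.16 against control and -0.26 between the exposed groups. Sdhb and Sdhc stood at -0.36 and -0.33 between the exposed groups, while the flavoprotein Sdha stood at 0.13. Of the 7 regulators of pyruvate dehydrogenase, the kinase Pdk2 stood at 0.30 and the phosphatase Pdp1 at -0.28 against control in affected fetuses, and the other 5 were within 1.2-fold in that comparison. Of those 5, 1 was just past 1.2-fold upward between the exposed groups. Pck2, the mitochondrial enzyme that makes phosphoenolpyruvate, was at -0.32 between the exposed groups.

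Of the 7 pentose phosphate genes, 0 were past 1.2-fold in affected fetuses against control, beside 15.6% of all loci lower and 17.5% higher. Between the exposed groups 1 was lower (14.3%, beside 22.9%) and 0 were higher, beside 25.1%.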

How the data were processed

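RNA from 9 fetuses, 3 per group, was sequenced by the study as 50-bp paired reads. Alignment to mm10 was done by the authors, with STAR and also Bowtie with TopHat named in the methods, and the submitters' processing notes list Bowtie2 2.2.4.0, Cufflinks and Cuffdiff. The annotation used for counting is not given in the sources used here. The authors deposited 1 FPKM per group and locus, taken by their software over the 3 animals. Columns for single animals numbered 0, and depth per library is unknown here. The deposited table also holds the authors' fold changes, p-values and q-values for each comparison, which were not used.

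Log2 ratios of FPKM + 0.1 were computed for all 27095 loci with Python 3.11.15, pandas 2.3.3 and NumPy 2.4.6, Spearman's rho with SciPy 1.17.1 and plots with matplotlib 3.10.9. Loci with a mean FPKM of at least 1 (15548) were kept. Of all loci, 3871 had no gene name and 351 carried joined names. A limma fit had been planned for values per animal and could not be run. The step that counts loci past 1.2-fold was run on simulated data. All 200 changed loci of 15548 were recovered there, in a simulated comparison of EtOH affected against control. How well changed loci are found in the measured data was not tested. Transcript length was the median exon length of a gene's GENCODE M21 coding transcripts with a CCDS tag and the best APPRIS rank. Promoter windows came from RefSeq. Proteins of isozymes were not compared.

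All 37 members are named, and of the other pathway lists the genes past 1.2-fold in any comparison, at most 20 with the largest fold first, and Gapdh. 1 gene under this rule is not reported here. The lists were written from general knowledge of the pathways. The members and lists were chosen with earlier results of these data known. Alternatives were another pseudocount, filter and fold, centring of fold changes, and other handling of joined and repeated loci.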

Additional observations from a re-analysis of the deposited data

How the results depend on the processing

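No paired analysis was possible because the table holds 1 value per group, and for the same reason no animal could be left out. Depth per library is unknown, so low values such as Hk2 have no counting interval. With a limit of 1.1-fold in place of 1.2-fold, the members lower and higher became 2 and 8 in EtOH unaffected against control, 12 and 7 in EtOH affected against control, and 17 and 8 in EtOH affected against EtOH unaffected. All loci then gave 20.8% and 19.1%, 28.6% and 33.1%, and 34.7% and 36.9%, so the members' share was above that of all loci for the higher genes of the first comparison and the lower genes of both others. With 1.5-fold there were 0 lower and 0 higher in each comparison, beside 3.08% and 2.46%, 3.01% and 3.42%, and 4.91% and 6.88% of all loci. With a mean FPKM of at least 10, 0 members were higher in EtOH affected against control, since Hk2 was left out. Pfkp, with a mean of 6.60 FPKM, was left out as well and so was no longer among the lower members of that comparison. Hk2 also dropped from the higher members between the exposed groups. Centred on loci of like transcript length, a choice made after seeing the data, the members past 1.2-fold in EtOH affected against EtOH unaffected were 2 lower and 1 higher, and the pyruvate dehydrogenase median log2 fold change was -0.033. With this centring all loci gave 13.6% lower and 13.9% higher in that comparison. Length centring turned the sign of 6, 5 and 5 members in the 3 comparisons, counting Aldoa, which went from -0.14 to 0 in EtOH affected against control. None of them was past 1.2-fold before in the comparison concerned. With a pseudocount of 1, Hk2 stood at 0.29 against control and 0.32 against unaffected fetuses. Centred on the median of all loci, Pgam1 at -0.26 and Idh2 at -0.27 passed 1.2-fold between the exposed groups. Leaving out joined loci, summing the loci of a symbol, using no filter or using no pseudocount changed no call.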

Other observations

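Genes known to be induced by low oxygen, outside glycolysis, were read from a list of 12, of which 11 had a mean FPKM of at least 1. In EtOH affected against control 5 were lower and 0 higher past 1.2-fold, or 45.5% lower beside 15.6% of all loci, and between the exposed groups 6 were lower (54.5%, beside 22.9%) and 1 higher (9.09%, beside 25.1%). Their median log2 fold change was 0.00 in unaffected and -0.20 in affected fetuses against control. Ankrd37, a nuclear ankyrin repeat protein, had 9.28 FPKM in control, 10.8 in unaffected and 5.42 in affected fetuses, the largest difference of the list. Bnip3, which acts in removal of mitochondria, had 33.3, 36.5 and 25.8 FPKM, and Vegfa, the vessel growth factor, had 12.6, 12.6 and 10.1 FPKM. Ddit4, an inhibitor of mTOR signalling, stood at -0.30 and Higd1a, a mitochondrial protein, at -0.37 against control. Ndrg1 ran the other way, at 0.31 between the exposed groups, and Adm, the vasodilator peptide adrenomedullin, was at -0.44 there. Transcripts of the lower genes were short, from 713 nt for Higd1a to 1756 nt for Bnip3. The other genes of the list that passed the filter were longer, from 2230 nt for P4ha2 to 4043 nt for P4ha1. All loci of the shortest class had a median of -0.16 against control and -0.26 between the exposed groups. The shares of all loci given above are thus not those of loci of like length, and the part of length was not tested.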
